A study of Mus with 12 samples.

Results

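The replication-dependent histone genes of mouse blood are the genes for the core histones H2A, H2B, H3 and H4 that lie in clusters on chromosomes 13 and 3. They were taken as every row of the deposited blood table whose gene name begins with H2ac, H2bc, H3c or H4c followed by a digit, without names ending in -ps. This gave 49 genes of the 25247 in the table, of which 14 code for H2A, 13 for H2B, 12 for H3 and 10 for H4. The members were chosen by gene name alone, and no measured value decided which gene entered. The family itself was proposed with earlier results of these data known, among which H2bc8 and H2bc15 were named. The levels and tests below are thus a description of these libraries and not independent evidence of a direction.

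Core histones wrap DNA into nucleosomes, and a dividing cell needs a new set for each copy of its genome. The replication-dependent genes lack introns, are transcribed mainly in S phase, and end their mRNA in a stem-loop that the protein SLBP binds, in place of a poly(A) tail. Replacement histones, such as H3.3 from H3f3a and H3f3b, come from genes outside the clusters that carry introns, give polyadenylated mRNA and are transcribed throughout the cell cycle. Polyadenylated mRNA from some clustered histone genes also occurs in cells that have left the cycle, and maturing red cells condense their chromatin, shed the nucleus and keep residual mRNA as reticulocytes.

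Blood was taken on day 30 from female BALB/c mice, 6 weeks old at the start, in 4 groups. The paper states groups of 6 mice, and the deposited blood data hold 12 libraries, 3 per group. How these were chosen is not given in the sources used here, and 1 mouse per library is assumed. Solvent mice received the acetone and olive oil vehicle. DNCB mice received the skin sensitiser 2,4-dinitrochlorobenzene on shaved dorsal skin, at 1% from day 0 to day 9 and at 0.5% from day 12 to day 27, which gives a dermatitis used as a model of atopic dermatitis. The scMSC and scivMSC mice received the same DNCB and 4 injections, from day 13 to day 25, of 2000000 mesenchymal stem cells (MSCs) from human umbilical cord. The scMSC mice received 100 µL under the skin, and the scivMSC mice 50 µL under the skin and 50 µL into the tail vein, so the route and the subcutaneous dose changed together. All groups share the strain and the sex, and all 3 DNCB groups share the sensitiser, so MSCs were never given without it.

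The libraries held between 52.18e6 and 65.14e6 estimated counts. Haemoglobin genes took 91.3% to 95.6% of summed FPKM (fragments scaled to gene length in kilobases and to 1e6 fragments of the library). Their mean share of counts was 83.2% in Solvent, 81.2% in DNCB, 85.6% in scMSC and 87.3% in scivMSC. Genes with at least 4 counts numbered about 16820, 15900, 15240 and 13310 on average in these groups, and 11806 in scivMSC library 2. Red cell markers such as Alas2, which starts haem synthesis, were in every library. The level of a gene in bulk blood is a share of the RNA, so fewer cells of a type and less RNA per cell cannot be told apart. A deposited count of 4 may stand for about 1 fragment, and a gene was taken as at the floor with at most 12 counts, or 3 fragments. Whether the libraries were selected for poly(A) is not given in the sources used here, and its part in the levels of mRNAs without such a tail was not tested.

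Clustered histone mRNA of 3 classes was plain in every library, and that of the clustered H3 genes was near absent. The 49 genes together held between 3874 and 9454 counts per library. Of them, 16 were at the floor in every library and 9 were above it in every library, and 21.9% of all values were 0. Genes that reached an FPKM of 1 in 3 or more of the 12 libraries were kept for testing, and 13 members were among them. These were 2 genes for H2A (H2ac18 and H2ac20), 6 for H2B (H2bc4, H2bc6, H2bc8, H2bc11, H2bc12 and H2bc15), 1 for H3 (H3c11) and 4 for H4 (H4c3, H4c8, H4c9 and H4c12). The filter can pass a gene through its high group alone, so counts over the 13 describe those genes and not the family of 49. H2bc6 lay just inside the filter with 3 libraries, and H2ac19 and H2bc13 just outside it with 2 each. Among the 36 members that were not tested, H2ac19 had the highest mean FPKM, at 1.92, and H4c1 came next at 0.590.

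The members lie in 3 clusters, and each cluster held tested genes and genes under the filter side by side. The coordinates are those of the deposited table, and the submitters' processing notes name the build mm8. All 49 members overlapped the position that RefSeq gives the same symbol on GRCm38.p6, so the build behind the coordinates is not settled. The cluster on chromosome 13 from 21715763 to 22043676 held 14 members, 6 of them tested, and the one from 23531050 to 23934156 held 25, 5 of them tested. The cluster on chromosome 3 from 96219865 to 96270132 held 10 members, of which H2ac18 and H2ac20 were tested.

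A trio of genes carried most of the members' signal. H2ac18, H4c9 and H2bc4 together held between 66.6% and 85.6% of the members' summed FPKM in a library. H2ac18 codes for an H2A and lies on the plus strand of chromosome 3 from 96245497 to 96246082. H4c9 codes for H4, whose protein is the same from nearly every H4 gene, and lies on the minus strand of chromosome 13 from 22040636 to 22041362. H2bc4 codes for an H2B and lies on the plus strand of chromosome 13 from 23684199 to 23692908, a span of 8710 bases that is far longer than a single histone coding sequence. The ratio of its counts to its FPKM implies a length of about 1226 bases, against about 622 for H2ac18. The latter exceeds the 586 bases that H2ac18 spans, so these implied lengths are rough.

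**Figure D1:**
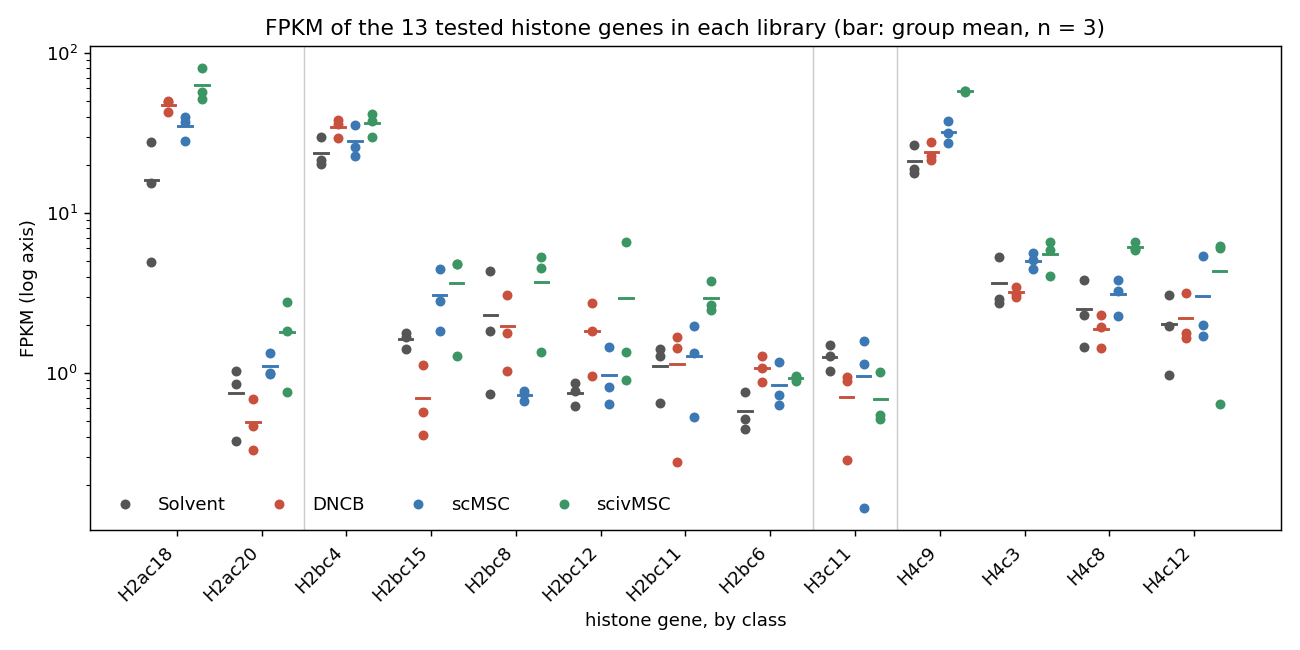
FPKM on a log axis of the 13 tested histone genes in each of the 12 libraries, with points for libraries, colours for groups and bars for group means (n = 3). H2ac18, H2bc4 and H4c9 stand above all other tested members in every library, and the 3 scivMSC points of H4c9, between 57.1 and 58.0, lie above every other library of that gene.

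The summed mRNA of the members was highest in the scivMSC mice. Added over the 49 genes, FPKM came to 114.5, 80.2 and 64.2 in Solvent mice and to 130.7, 135.2 and 113.7 in DNCB mice. The sums were 117.3, 116.3 and 145.2 in scMSC mice and 185.8, 183.9 and 223.6 in scivMSC mice. The lowest scivMSC library thus lay above the highest of the other 9 libraries, while scMSC and DNCB overlapped and Solvent library 1 lay just above the lowest DNCB library. Group means were 86.3 ± 25.7 in Solvent, 126.5 ± 11.3 in DNCB, 126.3 ± 16.4 in scMSC and 197.8 ± 22.4 in scivMSC (SD, n = 3). Counts per 1e6 counts gave the same order of groups, with means of 75.8 ± 21.8, 108.9 ± 11.6, 104.4 ± 15.5 and 157.4 ± 16.7 (SD, n = 3). No test was made of the sum, since the members were proposed with these data in view.

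The higher sum in scivMSC came from H4 and H2A more than from H2B, and the clustered H3 genes stayed low throughout. H4 genes summed to 40.9, 25.02 and 25.8 FPKM in Solvent, 30.9, 37.0 and 29.8 in DNCB, 42.6, 40.1 and 52.5 in scMSC and 75.3, 71.0 and 80.4 in scivMSC. H2A genes summed to 30.7, 27.4 and 6.78 FPKM in Solvent, 50.8, 51.8 and 44.9 in DNCB, 44.2, 39.4 and 42.1 in scMSC and 56.8, 61.4 and 83.3 in scivMSC. For H4, H2A and H2B alike the scivMSC libraries lay above all others. For H2B the lowest scivMSC library was at 48.99 FPKM and the highest other library, scMSC library 3, at 47.17. For H2A all DNCB libraries also lay above all Solvent libraries. H2B genes summed to means of 31.5 ± 7.77, 43.2 ± 4.97, 36.9 ± 9.43 and 52.8 ± 4.49 FPKM in Solvent, DNCB, scMSC and scivMSC (SD, n = 3), with scMSC spread across the DNCB range. The 12 H3 genes together never exceeded 3.36 FPKM, and their lowest sum was 1.09.

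**Figure D2:**
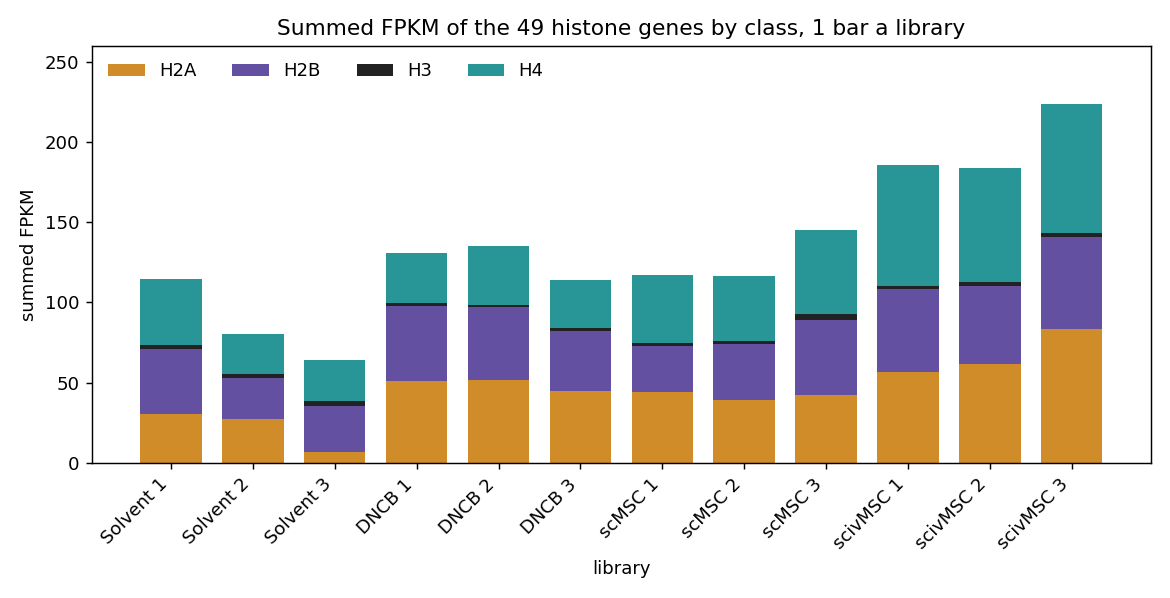
Summed FPKM of the 49 histone genes in each library, 1 bar a library, stacked by the histone that the genes code for. The scivMSC bars reach 183.9 to 223.6 and the other 9 bars 64.2 to 145.2, while the H3 layer stays between 1.09 and 3.36 throughout.

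Most H3 mRNA in these libraries was that of a replacement gene. H3f3a, which codes for H3.3, had 97.5, 76.6 and 63.3 FPKM in Solvent, 79.6, 93.6 and 73.7 in DNCB, 79.6, 59.9 and 65.7 in scMSC and 87.6, 83.2 and 81.6 in scivMSC. Its level per length was thus far above the sum of all 12 clustered H3 genes in each library. All scivMSC libraries lay above all scMSC libraries, and the other groups overlapped. H3c11, the only clustered H3 gene tested, had 1.03, 1.28 and 1.49 FPKM in Solvent, 0.943, 0.287 and 0.891 in DNCB, 1.14, 0.142 and 1.59 in scMSC and 0.514, 1.01 and 0.549 in scivMSC. It passed the test in none of the 6 contrasts under either scaling described next, with adjusted p from 0.0975 to 0.989 over both in edgeR's quasi-likelihood test.

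The comparisons between groups depend on what is held constant, because the median over all tested genes shifted in the MSC groups. With counts scaled to library totals, the scale of the deposited FPKM, the 5527 tested genes had a median log2 fold change of 0.06 between DNCB and Solvent. For scMSC this median was -0.63 against DNCB and -0.59 against Solvent. For scivMSC it was -1.53 against DNCB, -1.47 against Solvent and -0.87 against scMSC. With TMM scaling, which centres the bulk of genes, the same medians lay between -0.09 and 0.06. Total counts are the main scale, and counts of calls with TMM are given beside them. A gene was called at a Benjamini-Hochberg adjusted p under 0.05 in edgeR's quasi-likelihood test over all 5527 genes and a change of more than 1 on the log2 scale.

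DNCB against Solvent compares blood after the whole DNCB course, sensitisation and challenge, with blood after vehicle. Of the 13 tested histone genes H2ac18 alone was called. It had 27.8, 15.4 and 4.93 FPKM in Solvent mice and 49.4, 50.0 and 43.0 in DNCB mice. The groups did not overlap, and the Solvent libraries differed among themselves more than the DNCB libraries did. H2ac18 rose by 1.56 ± 0.44 (log2, SE; adjusted p = 0.0174, edgeR) and by 1.55 with TMM scaling (adjusted p = 0.00976, edgeR). Without Solvent library 2 the adjusted p was 0.0682 and the log2 change 1.53. Among tested genes of the whole table, 15.6% were called higher and 4.87% lower (16.1% and 11.5% with TMM), so 1 of 13 is no more than the background. None was called lower with total counts, where 2 members were higher and none lower at an unadjusted p under 0.05 in edgeR. DESeq2 called 1 higher and 1 lower, where 16.9% and 11.3% of all genes were, and it called no member lower in the other 5 contrasts. H2bc15 was called lower with TMM, at -1.42 on the log2 scale (adjusted p = 0.0337, edgeR), but not with total counts, at -1.20 ± 0.64 (SE; adjusted p = 0.204, edgeR).

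The median of the 13 log2 fold changes was 0.02 in this contrast, beside 0.06 for all tested genes. H2bc4 had 29.7, 20.2 and 21.4 FPKM in Solvent and 35.8, 37.9 and 29.4 in DNCB, which overlap at their edge. The fitted log2 change of 0.53 ± 0.28 (SE) had an adjusted p of 0.201 in edgeR. H4c9 had 26.7, 17.9 and 18.7 FPKM in Solvent and 22.8, 27.9 and 21.6 in DNCB, and the log2 fold change was 0.19 ± 0.28 (SE; adjusted p = 0.686, edgeR).

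H2ac18 needs a reservation about its annotation. Its interval overlaps Gm20634 on the same strand and Gm20633 on the opposite strand. Gm20633 was listed at 10.4, 0 and 0 FPKM in the DNCB libraries and at 10.8, 11.9 and 0 in the scivMSC libraries, and Gm20634 at 10.2, 0.742 and 0.837 and at 10.6, 11.4 and 0.575. Libraries of 1 group thus differed in how the overlapping models were filled, and whether reads were counted by strand is not given in the sources used here. The neighbouring H2ac19, of the same H2A family, held 355 counts in Solvent library 2 and 369 in scMSC library 1 and 0 in the other 10 libraries. With H2ac18 and H2ac19 added together, the log2 fold change of DNCB against Solvent was 1.31 (adjusted p = 0.0440, edgeR). Reads of near-identical histone genes can be split differently among copies, so each single gene here is less certain than its class sum. Overlap with another annotated gene touched 7 members, and H2ac18 and H2bc6 were the tested ones.

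Subcutaneous MSCs against DNCB alone asks how the treatment altered sensitised blood. H2bc15, an H2B gene on the plus strand of chromosome 13 from 21754123 to 21754503, was the 1 member called. H2bc15 had already been listed by the paper, from data that include these libraries, as lower in DNCB than in the MSC groups. It had 0.410, 1.11 and 0.571 FPKM in DNCB and 1.84, 2.83 and 4.48 in scMSC, from 10 to 27 counts against 39 to 103. The groups did not overlap, and the DNCB counts stand for few fragments. H2bc15 rose by 2.09 ± 0.65 (log2, SE; adjusted p = 0.0243, edgeR), and leaving out DNCB library 1, DNCB library 3, scMSC library 2 or scMSC library 3 moved the adjusted p to 0.0941, 0.0716, 0.0556 and 0.107. Without the filter on low values it was 0.143. Of all tested genes 1.27% were called higher and 24.9% lower in this contrast. No member was called lower, and at an unadjusted p under 0.05 in edgeR the same contrast gave 1 member higher and none lower.

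With TMM scaling 5 members were called higher in scMSC against DNCB, where 8.74% of all genes were, and DESeq2 also called 5, with 8.85% of all genes. The TMM calls were H2ac20, H2bc15, H4c3, H4c8 and H4c9. H4c3 had 2.98, 3.44 and 3.13 FPKM in DNCB and 4.44, 5.60 and 5.06 in scMSC, without overlap. Its log2 fold change was 0.65 with total counts (adjusted p = 0.230, edgeR) and 1.35 with TMM (adjusted p = 0.00989, edgeR). H2ac18 was at 28.2, 36.8 and 39.6 FPKM in scMSC, below all DNCB libraries, and its fitted log2 change of -0.46 ± 0.43 (SE; adjusted p = 0.446, edgeR) turned to 0.25 with TMM. The median over the 13 members was 0.40, beside -0.63 for all genes, and 11 of the 13 lay above the all-gene median.

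**Figure D3:**
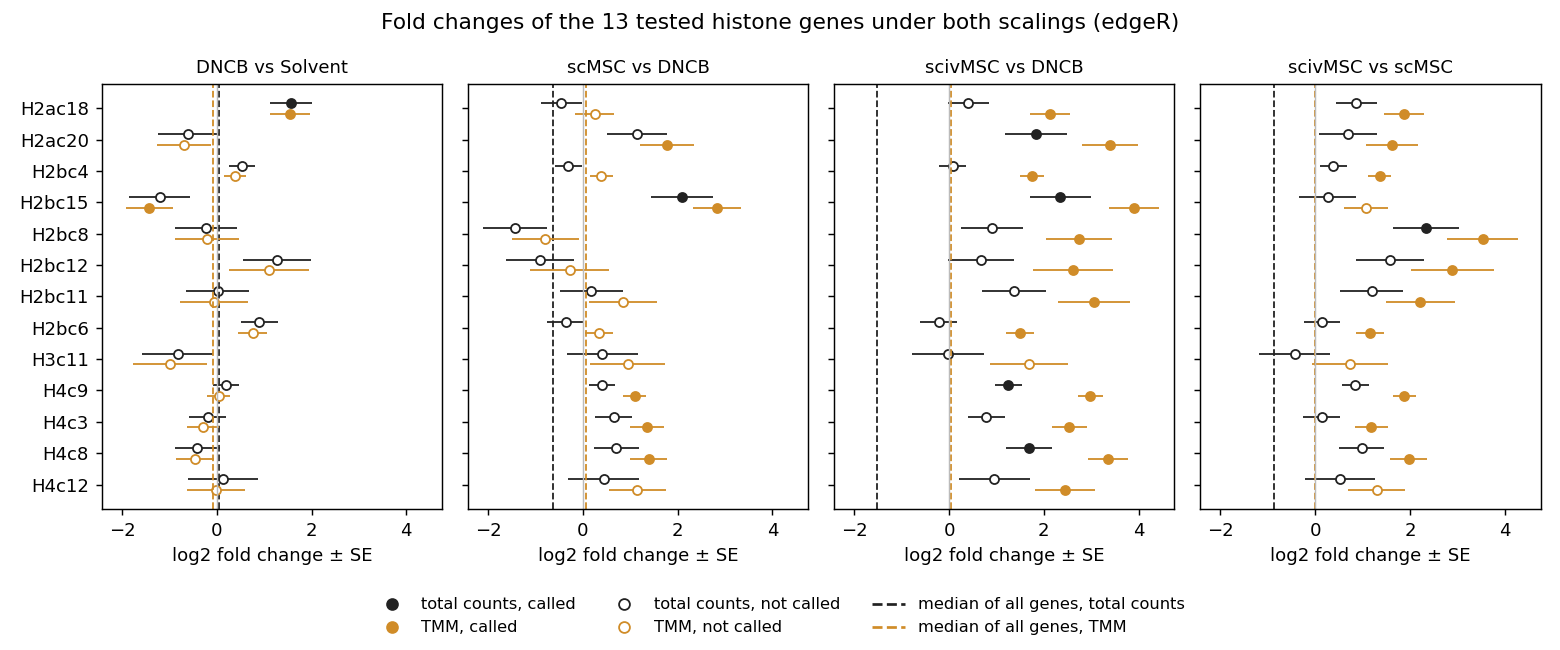
Log2 fold change with its standard error for the 13 tested histone genes in 4 contrasts, with counts scaled to library totals (black) and with TMM factors (orange). Filled points are called, and dashed lines mark the median of all 5527 genes under each scaling. In scivMSC against DNCB every member lies to the right of the dashed line of its scaling.

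Combined subcutaneous and intravenous MSCs against DNCB alone called 4 members higher, while 1.43% of all tested genes were called higher and 62.0% lower. They were H4c9, H4c8, H2ac20 and H2bc15. H4c9 was at 57.1, 57.9 and 58.0 FPKM in scivMSC, above all 3 DNCB libraries at 21.6 to 27.9, and rose by 1.25 ± 0.28 (log2, SE; adjusted p = 0.00105, edgeR). H4c8, on the plus strand of chromosome 13 from 23531050 to 23531519, had 5.90, 5.91 and 6.58 FPKM against 2.30, 1.44 and 1.93 in DNCB. It rose by 1.69 ± 0.49 (log2, SE; adjusted p = 0.00633, edgeR). The scivMSC libraries of these H4 genes were close to each other, and both genes code for the same protein.

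The calls of the other pair rested on fewer fragments. H2bc15 had 4.82, 1.27 and 4.81 FPKM in scivMSC and rose by 2.35 ± 0.65 (log2, SE; adjusted p = 0.00485, edgeR), with scivMSC library 2 close to DNCB library 2. H2ac20, on the minus strand of chromosome 3 from 96220361 to 96220880, had 2.78, 1.83 and 0.765 FPKM in scivMSC and 0.464, 0.332 and 0.682 in DNCB. It rose by 1.83 ± 0.65 (log2, SE; adjusted p = 0.0192, edgeR), and leaving out DNCB library 1, DNCB library 2 or scivMSC library 1 moved the adjusted p to 0.0579, 0.0770 and 0.0801. Without the filter it was 0.154. No member was called lower, and at an unadjusted p under 0.05 edgeR gave 4 higher and none lower.

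Of the 3 most abundant members, H4c9 was called, and H2ac18 and H2bc4 did not pass this comparison with total counts. H2ac18 had 51.9, 57.1 and 80.6 FPKM in scivMSC, above the DNCB libraries at 43.0 to 50.0, and the fitted log2 change was 0.41 ± 0.43 (SE; adjusted p = 0.408, edgeR). H2bc4 had 37.5, 30.04 and 41.4 FPKM, across the DNCB range, with 0.08 ± 0.28 (SE; adjusted p = 0.820, edgeR). Neither group of H2bc4 libraries stood apart. The remaining 7 tested members ranged from -0.22 for H2bc6 to 1.37 for H2bc11 on the log2 scale. H2bc11 had 2.47, 3.73 and 2.66 FPKM in scivMSC and 1.68, 0.278 and 1.44 in DNCB, without overlap, and an adjusted p of 0.0779 in edgeR's test.

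Against the movement of the other genes the members stood high. The median of their log2 fold changes was 0.91, beside -1.53 for all genes, and all 13 lay above the all-gene median. With TMM scaling 12 of the 13 were called higher, where 20.6% of all genes were, and H3c11 was the exception. The direction of H2bc6 turned from -0.22 to 1.501 between the scalings. With haemoglobin left out of the library totals 7 were called higher, where 6.17% of all genes were. DESeq2 with its size factors called 12, and 20.9% of all genes. The count of calls thus followed the scaling.

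The route comparison, scivMSC against scMSC, called 1 member. H2bc8, an H2B gene on the plus strand of chromosome 13 from 23571396 to 23572013, had 0.740, 0.665 and 0.766 FPKM in scMSC and 1.36, 5.31 and 4.496 in scivMSC. In counts these were 26, 26 and 29 against 49, 183 and 159. The groups did not overlap, and scMSC was the low and narrow group, since Solvent had 4.36, 0.737 and 1.82 FPKM and DNCB 3.05, 1.03 and 1.78. H2bc8 was higher in scivMSC by 2.34 ± 0.69 (log2, SE; adjusted p = 0.0225, edgeR). The adjusted p reached 0.0522 to 0.0694 when scMSC library 1, 2 or 3 or scivMSC library 2 or 3 was left out, and 0.0524 in a fit of the 6 libraries alone. Of all genes 0.344% were called higher and 30.4% lower.

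H4c9 also differed between the routes, with 31.7, 27.2 and 37.4 FPKM in scMSC, below all scivMSC libraries. The log2 difference was 0.85 ± 0.28 (SE; adjusted p = 0.0315, edgeR), under the fold that a call asks for. None of the 13 was called lower, and 3 were higher and none lower at an unadjusted p under 0.05 in edgeR. With TMM 10 were called higher, where 13.1% of all genes were, and DESeq2 called 11, with 14.7% of all genes. The median of the members was 0.69, beside -0.87 for all genes, and 13 of 13 lay above the all-gene median.

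Against Solvent, the scMSC blood had no histone gene called in either direction by edgeR, with 0.326% of all genes called higher and 0.326% lower. At an unadjusted p under 0.05 it gave 2 members higher and 1 lower. With TMM 3 were called higher, where 7.29% of all genes were, and DESeq2 called 5, with 8.16% of all genes. The genes called with TMM were H2ac18, H2bc6 and H4c9. The median of the members was 0.45, beside -0.59 for all genes.

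The scivMSC blood had 4 members called higher against Solvent, with 2.59% of all genes called higher and 59.2% lower. H4c9 rose by 1.45 ± 0.28 (log2, SE; adjusted p = 0.000537, edgeR) and H2ac18 by 1.97 ± 0.45 (log2, SE; adjusted p = 0.00140, edgeR), both without overlap of the groups. H4c8, at 3.79, 2.31 and 1.45 FPKM in Solvent, rose by 1.28 ± 0.48 (log2, SE; adjusted p = 0.0282, edgeR). Leaving out Solvent library 2, Solvent library 3 or scivMSC library 3 moved that adjusted p to 0.0762, 0.106 and 0.0712. It was 0.101 without the filter and 0.0851 in a fit of the 6 libraries alone.

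H2bc12 was the fourth call, and a single library made it. This H2B gene, on the plus strand of chromosome 13 from 22035870 to 22036345, had 0.618, 0.867 and 0.770 FPKM in Solvent and 1.36, 6.55 and 0.902 in scivMSC. It rose by 1.94 ± 0.73 (log2, SE; adjusted p = 0.0276, edgeR), and without scivMSC library 2, which held 174 counts against 38 and 25 in the others, it was 0.60 with an adjusted p of 0.452. The adjusted p was also 0.0567 to 0.0874 without any 1 Solvent library, 0.0762 without the filter and 0.0516 in a fit of the 6 libraries alone. No member was called lower, and 5 were higher and none lower at an unadjusted p under 0.05 in edgeR. With TMM 12 were called higher, where 22.4% of all genes were, and DESeq2 called 12, with 23.4% of all genes. The median of the members was 1.15, beside -1.47 for all genes, and all 13 lay above the all-gene median.

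The other histone genes had a median below 0 in scivMSC against DNCB with total counts. The list held the linker histones, the H2A variants, H3.3 and the centromeric Cenpa, 16 genes of which 8 were tested. Of the 8, 3 were called lower and the median log2 fold change was -0.96, beside 62.0% called lower and a median of -1.53 over all genes. Macroh2a1, a large H2A variant of repressed chromatin, fell from 2.48, 2.99 and 2.19 to 0.505, 0.247 and 0.313 FPKM, a log2 change of -2.83 ± 0.38 (SE; adjusted p = 1.76e-05, edgeR). H3f3b and the H2A.Z gene H2az1 were the others called lower, at -1.27 and -1.05, while H3f3a was at 0.03. With TMM the median turned to 0.55. Macroh2a1 alone was then called lower, at -1.25, and H3f3b and H2az1 turned to 0.42 and 0.57 without a call. H3f3a was 1 of 3 genes called higher, at 1.74, where 20.6% of all genes were. In scivMSC against scMSC, H3f3a was at 0.30 with total counts (adjusted p = 0.258, edgeR). With TMM it was called higher there, at 1.33 (adjusted p = 0.00311, edgeR).

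The linker histone gene H1f2, which lies among the clustered genes and also gives stem-loop mRNA, was called higher against Solvent in scivMSC and, at the edge of the threshold, in DNCB. It had 12.5, 7.27 and 8.84 FPKM in Solvent, 19.3, 23.3 and 14.7 in DNCB, 14.5, 10.97 and 16.5 in scMSC and 22.1, 19.8 and 20.7 in scivMSC. DNCB and scivMSC lay above all Solvent libraries. It rose by 1.00 ± 0.30 in DNCB and by 1.13 ± 0.30 in scivMSC against Solvent (log2, SE; adjusted p = 0.0250 and 0.00434, edgeR). With TMM the DNCB value was 0.85, under the fold that a call asks for, and the scivMSC value 2.68.

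Few genes of replication and of histone mRNA handling passed the filter, and their direction in scivMSC against DNCB depended on the scaling. Of all tested genes, 62.0% were called lower and 1.43% higher in this contrast with total counts. With TMM these shares were 18.9% lower and 20.6% higher. Of 32 genes for DNA replication and cell division 5 were tested, and 2 were called lower with total counts, with a median of -0.66. With TMM 3 were called higher, with a median of 1.02. Pcna, the sliding clamp, was at -1.57 (0.03 with TMM) and the helicase subunit Mcm4 at -2.18 (-0.64), while the proliferation marker Mki67 was at 0.08 (1.63). Of 16 genes for histone mRNA 3′ end processing and turnover 7 were tested, and 6 were called lower with a median of -1.85, near the all-gene median of -1.53. With TMM 1 was called lower, with a median of -0.34. Slbp, the stem-loop binding protein, was below the filter, at 0.135 to 0.963 FPKM over the 12 libraries. Of 9 genes for histone chaperones and nuclear export in maturing red cells 5 were tested, and 4 were called lower, whereas the exportin gene Xpo7 had 0.49 (adjusted p = 0.322, edgeR). With TMM Xpo7 alone of the 5 was called, higher at 2.14.

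**Figure D4:**
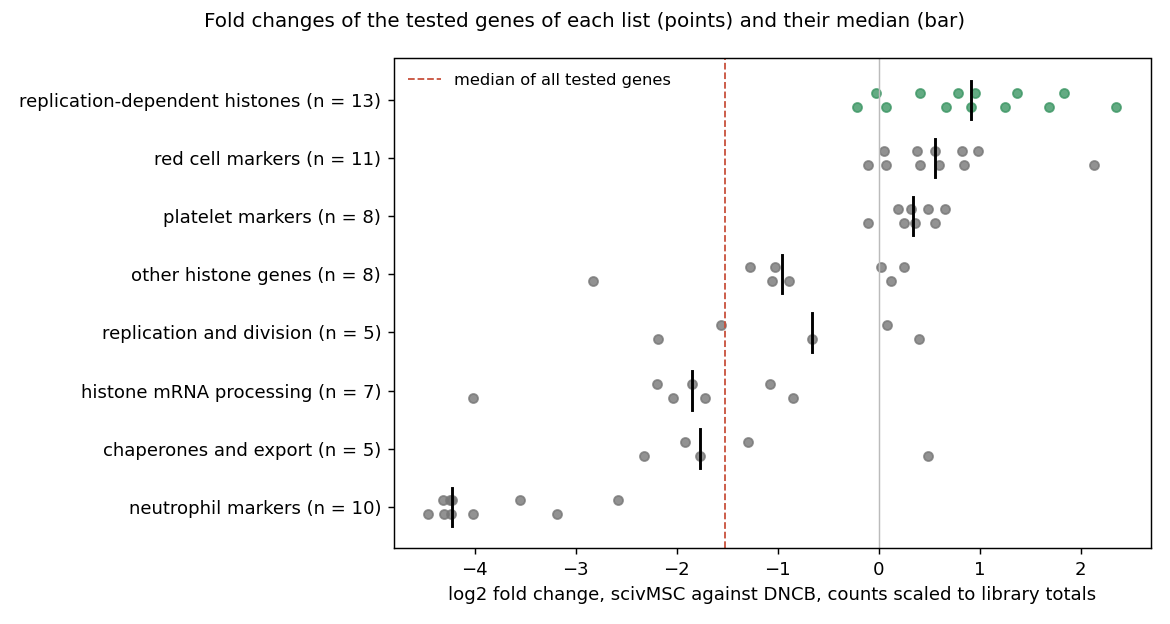
Log2 fold change of scivMSC against DNCB, with counts scaled to library totals, for the tested genes of each list (points) and their median (bar), with the median of all tested genes dashed. The clustered histones, with a median of 0.91, lie beside the red cell and platelet markers at 0.56 and 0.34, and the medians of the other lists shown lie below 0.

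Markers of the blood cell types gave the setting in which these values stand. In scivMSC against DNCB the 11 tested red cell markers had a median of 0.56 and the 8 platelet markers 0.34. With TMM all of both lists were called higher, with medians of 2.20 and 2.05, where 20.6% of all genes were. Among the red cell markers the transcription factor Gata1 alone was called with total counts, higher at 2.13, where 1.43% of all genes were. The summed FPKM of the 14 red cell markers ranged from 4553 to 5643 in DNCB and from 4977 to 5632 in scivMSC, and that of the platelet markers from 573.2 to 775.5 and from 722.5 to 837.4. All 10 neutrophil markers were called lower, with a median of -4.23 and summed FPKM of 6965 to 10930 in DNCB against 246.2 to 730.3 in scivMSC. With TMM the 10 neutrophil markers were again called lower, with a median of -2.69, where 18.9% of all genes were. The other leukocyte lists depended on the scaling. All 6 B cell markers, 4 of 5 monocyte markers, 2 of 8 T cell markers and 2 of 4 NK cell markers were called lower with total counts, where 62.0% of all genes were. With TMM no B or T cell marker was called, 2 monocyte markers were lower and 1 higher, and 1 NK cell marker was higher. Of 4 eosinophil and basophil markers 1 was called higher and 2 lower, and with TMM 2 higher and 1 lower. For these leukocyte lists the shares over all genes were 1.43% higher and 62.0% lower with total counts. With TMM they were 20.6% higher and 18.9% lower. The part of these shifts in the histone values was not tested.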

How the data were processed

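Whole-blood RNA of 12 libraries was analysed from the deposited table of 25247 genes, which holds an estimated count and an FPKM value per gene and library. Every value column (24) belongs to a labelled sample. The authors made both from aligned reads, and the submitters' processing notes list HISAT2 2.0, StringTie 1.3.0, Bowtie 0.12.2 and the build mm8 without saying what each did. The deposited estimated counts are whole numbers. Of those from 1 to 12, 29.0% were 4, 16.0% were 8 and 9.75% were 12, and the rest were other values. Low values may thus rest on fewer fragments than their counts, and the floor of 12 counts covers counting error only. SDs and SEs cover the spread between libraries, which is that between mice only if each library came from 1 mouse. The FPKM values, as deposited by the authors, count haemoglobin in the library total.

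Counts were tested with edgeR 4.0.16 (quasi-likelihood, R 4.3.3) in 1 fit of all 12 libraries with 4 group means and total counts as library sizes, after a filter that kept 5527 genes, and p-values were adjusted by Benjamini-Hochberg over all of them. SEs were derived from the change and its F statistic. Alternatives were TMM factors, haemoglobin left out, DESeq2 1.42.0, no filter, counts divided by 4, fits of 6 libraries, a replicate block, each library left out, and, added after seeing the data, H2ac18 and H2ac19 summed. The code was tested on simulated counts. Members named with full values were those called in any contrast, the most abundant of each class, H2bc8 and H2bc15; others named were chosen after their values were seen. The members, lists and tests were chosen with earlier results of these data known. No sequences of the genes are printed, since none were in the reference tables used here.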

Additional observations from a re-analysis of the deposited data

Results flagged for a closer look

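In a comparison of the MSC routes, H2bc8 and H4c9 gave results for a closer look, because their difference between scivMSC and scMSC was tested directly and passed an adjusted p of 0.05. H2bc8 was 2.34 higher on the log2 scale in scivMSC (SE 0.69; adjusted p = 0.0225 in edgeR's quasi-likelihood test), higher in 3 of 3 libraries than every scMSC library. Against DNCB it was at -1.42 in scMSC and 0.91 in scivMSC, and neither passed. The call between the routes was lost when scMSC library 1, 2 or 3 or scivMSC library 2 or 3 was left out. The adjusted p was then 0.0522 to 0.0694 in edgeR's test. H2bc8 was also among the genes named by earlier results of these data. H4c9 was 0.85 higher in scivMSC (SE 0.28; adjusted p = 0.0315 in edgeR's quasi-likelihood test), again in 3 of 3 libraries. Groups of 3 are too small to test for a single library that stands apart.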

How the results depend on the processing

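Scaling moved the counts of called members most. With TMM and with DESeq2 the members called higher were 5 and 5 for scMSC and 12 and 12 for scivMSC against DNCB, 10 and 11 in scivMSC against scMSC, 3 and 5 in scMSC against Solvent, and 12 and 12 in scivMSC against Solvent, and both called 1 lower in DNCB against Solvent. With haemoglobin left out these counts were 2, 7, 4, 1 and 10. The sign of H2bc6 in scivMSC against DNCB turned to 1.501 under TMM and 1.502 under DESeq2. The cause was not tested beyond the scaling itself. Without the filter 2 were called higher in scivMSC against Solvent, and 1, 1 and 2 were called lower in DNCB against Solvent, scivMSC against scMSC and scivMSC against Solvent. Fits of only 6 libraries called 1 lower in scMSC against DNCB, 0 higher in scivMSC against scMSC, 1 higher and 1 lower in scMSC against Solvent, and 2 higher in scivMSC against Solvent. Leaving out each library in turn gave 0 to 1 called higher in DNCB against Solvent and in scMSC against DNCB, 0 to 2 in scivMSC against scMSC, and 2 to 5 in scivMSC against Solvent. The ratio of group means of the summed counts per 1e6 counts, 1.45 for scivMSC over DNCB, was 1.69 without H2bc4. Per 1e6 counts outside haemoglobin the ratios were 1.25 for scMSC over DNCB (0.958 with all counts), 2.18 for scivMSC over DNCB, 1.75 for scivMSC over scMSC (1.51) and 2.83 for scivMSC over Solvent (2.08). Deviations from the group means were weakly correlated between same-numbered libraries of different groups (r from -0.200 to 0.173 over 18 pairs, 3 of them over 0.1). With so few libraries per group this cannot exclude a pairing by number, which the labels do not state. A fit with the replicate block called 3 members in scivMSC against Solvent instead of 4 and changed no other count. If about 4 counts stand for 1 fragment, depth limits the 36 members under the filter to a statement that they were low.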

Other observations

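The table also holds 9 histone rows under older names that begin with Hist1h, and 5 of them were tested. Hist1h4m and Hist1h4n, H4 genes by name, differed between both MSC groups and DNCB alone. Hist1h4m had 3.75, 4.41 and 2.53 FPKM in DNCB, 7.20, 10.7 and 11.1 in scMSC and 12.9, 11.8 and 10.4 in scivMSC. Its log2 fold change against DNCB was 1.42 in scMSC (adjusted p = 0.0150, edgeR) and 1.70 in scivMSC (adjusted p = 0.00171, edgeR). Hist1h4n had 9.42, 9.75 and 5.38 FPKM in DNCB, 17.2, 25.9 and 24.5 in scMSC and 25.4, 20.3 and 21.01 in scivMSC. Its log2 fold change against DNCB was 1.45 in scMSC (adjusted p = 0.00994, edgeR) and 1.43 in scivMSC (adjusted p = 0.00363, edgeR). For both genes the DNCB libraries lay below every MSC library, and no difference between the routes passed the test with total counts. With TMM the changes against DNCB were 2.15 and 3.41 for Hist1h4m and 2.18 and 3.12 for Hist1h4n, in scMSC and scivMSC, and Hist1h4m was also called between the routes, at 1.25 (adjusted p = 0.00876, edgeR).

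Hist1h2al, an H2A gene by name, was called in scivMSC against Solvent, at 1.43 (adjusted p = 0.00417, edgeR). It had 12.99, 9.19 and 8.48 FPKM in Solvent and 32.5, 29.3 and 21.3 in scivMSC. Hist1h2bq and Hist1h2br, H2B genes by name, had mean FPKM of 3.73 and 2.18 and passed in none of the 6 contrasts with total counts. With TMM both were called higher in scivMSC against DNCB, at 1.33 and 2.19, and Hist1h2al at 2.41. The summed FPKM of the 9 rows ranged from 25.9 to 80.3 over the libraries. These rows were looked at after their values were known.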
